A study of Stenocereus queretaroensis with 6 samples.

Results

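Transcripts of DNA replication enzymes and factors and of histones were compared between suspension cultures of the columnar cactus *Stenocereus queretaroensis* fed 3% or 8% sucrose. The members were the assembled transcript clusters whose best Swiss-Prot protein description names a histone (H1, H2A, H2B, H3 or H4) or 1 of 11 kinds of replication enzyme or factor. They number 319 of the 170970 clusters in the assembly, 98 for histones and 221 for enzymes and factors. All 6 libraries came from cells floating in MS medium, the usual salt mixture for plant cultures, and the labels name no other agent, genotype, clone or time. Each medium had 3 libraries, titled SqY at 3% sucrose and SqR at 8% sucrose, and the meaning of Y and R is not given in the labels. Nothing in the labels states that replicate libraries are from separate cultures, so the p-values describe the spread between these libraries, which may be technical.

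Before a cell divides, the origin recognition complex marks the sites where copying starts, and the MCM helicase is loaded there and later unwinds the DNA. DNA polymerase alpha begins each new strand, polymerase epsilon extends the leading strand and polymerase delta the lagging strand, held on the DNA by the PCNA clamp, which replication factor C loads. Ribonucleotide reductase and thymidine kinase supply the building blocks, and chromatin assembly factor 1 places new histones on the copied DNA. Histone messages of plants carry poly(A) tails, so libraries made by poly(A) capture contain them.

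The libraries held 35476032 to 41147265 expected counts. Levels are given as CPM, counts divided by a TMM-scaled library size and set to 1 common size, and "rose" and "fell" mean an adjusted p under 0.05 for 8% against 3% sucrose in edgeR's quasi-likelihood test over 85038 tested clusters. The remaining tested clusters are given as uncalled. Of the histone clusters, 80 were tested, 16 had too few counts and 2 had none. Of the enzyme and factor clusters, 166 were tested, 46 had too few counts and 9 had none. Members of one protein often came as several clusters, since the 319 clusters fall on 111 protein hits, and the reads of a gene or of near-identical genes can be divided between clusters. No marker genes for the cultured cell type are available in the labels. As a sign of other organisms, 11 members had their best NR hit outside land plants or none, of which 3 were tested, and these 11 held 0.125% of the members' counts.

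At 8% sucrose, replication enzymes and factors were mostly lower and histones were mixed. Linker histone H1 and histone H4 were higher in summed level and histone H2B was lower. Without its top cluster, which is 2153 bases long, the H4 sum had a ratio of 8% to 3% sucrose of 1.02 in place of 1.81. Of the 166 tested enzyme and factor clusters, 67 fell, 18 rose and 81 were uncalled. Of the 80 tested histone clusters, 29 rose, 18 fell and 33 were uncalled. The shares over all tested clusters were 29.1% for rises and 25.6% for falls. Against these shares, 10.8% of the enzyme clusters rose and 40.4% fell, while the histone clusters had 36.2% rises and 22.5% falls. The median log2 fold change was -0.71 for enzymes and factors and 0.28 for histones, beside 0.19 for all tested clusters. Total RNA of a culture cannot tell fewer replicating cells apart from less of a transcript per cell.

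Over all clusters, falls were more frequent among the deeply counted ones. Among clusters with a mean of at least 100 counts, 31.8% rose and 43.5% fell, with a median log2 fold change of -0.24. Of the 77 enzyme and factor clusters this deep, 10 rose and 47 fell, with a median of -0.77. Of the 61 histone clusters this deep, 26 rose and 16 fell, with a median of 0.27. The media did not overlap, with 8% sucrose lower, for 80 enzyme clusters and 21 histone clusters, and over all tested clusters for 31.0%. They did not overlap, with 8% sucrose higher, for 27 enzyme clusters and 34 histone clusters, and over all tested clusters for 36.6%.

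**Figure D1:**
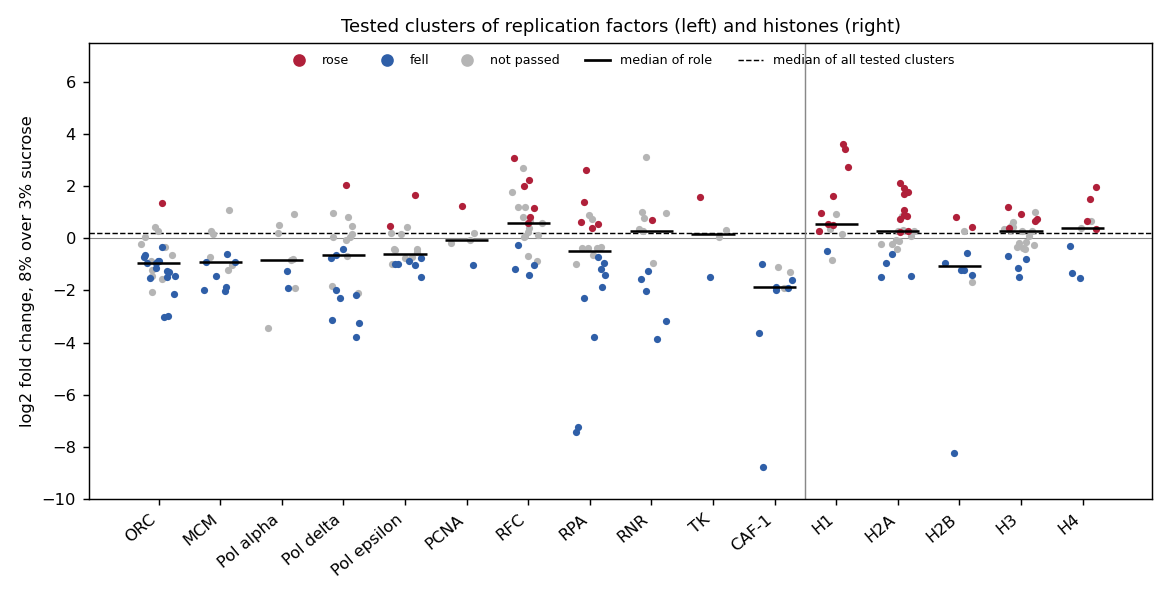
Log2 fold change of 8% over 3% sucrose for each tested cluster, by role, coloured by its call in edgeR's test, with the median of each role as a bar and the median of all tested clusters, 0.19, as a dashed line. CAF-1, MCM and ORC have medians of -1.88, -0.91 and -0.95, and H1 has a median of 0.54; points of the 3 enzyme clusters with no count at 8% sucrose are fitted values and not bounds.

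Summed over all its clusters, the enzyme and factor class measured 2730, 2932 and 2762 CPM in the 3 libraries at 3% sucrose and 1630, 1759 and 1785 CPM at 8% sucrose. The histone class measured 3775, 3326 and 3393 CPM at 3% sucrose and 4716, 4511 and 4300 CPM at 8% sucrose. The media thus did not overlap for either class. Replicate 1 at 3% sucrose had the highest histone sum of its medium. Without that library 32 histone clusters rose and 17 fell, and 14 enzyme clusters rose and 62 fell. As a share of all counts, histones took 0.329% ± 0.0221 at 3% sucrose and 0.472% ± 0.0189 at 8% sucrose (SD, n = 3). Enzymes and factors took 0.264% ± 0.00873 and 0.181% ± 0.00971 (SD, n = 3). No test was made of these sums, whose members were chosen with results known.

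**Figure D2:**
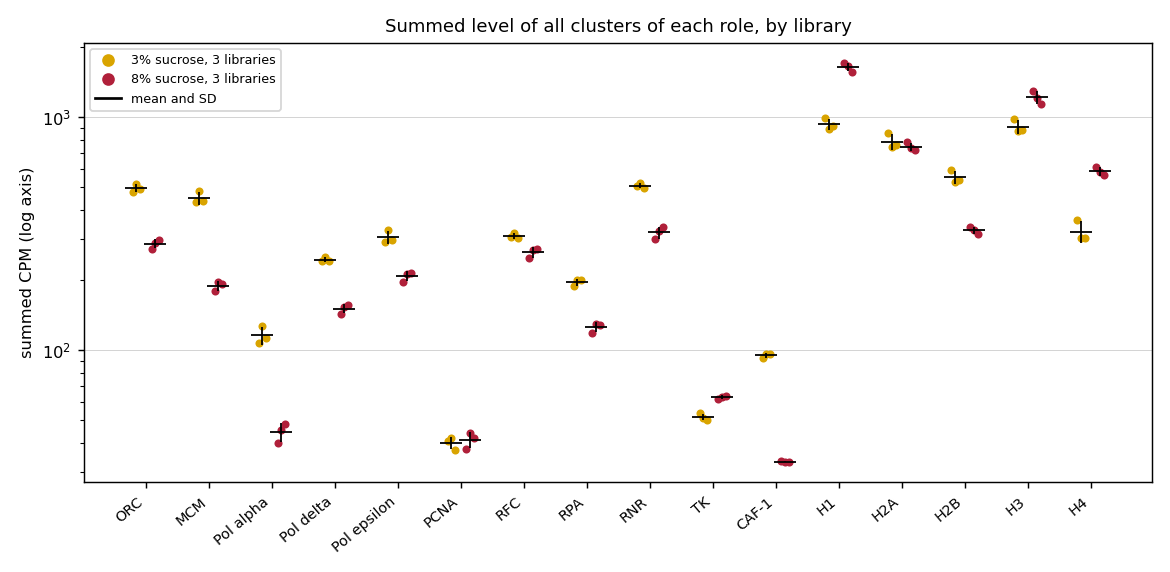
Summed CPM of all clusters of each role on a log axis, with 1 point per library and the mean and SD of 3 libraries per medium. The media separate for MCM, from 431 to 483 CPM at 3% sucrose and from 179 to 196 CPM at 8% sucrose, and overlap for PCNA and H2A.

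Transcripts of origin licensing fell across most subunits. The origin recognition complex, which binds origins and is the platform for helicase loading, had 28 tested clusters, of which 16 fell, 1 rose and 11 were uncalled. The count of rises was 2 without replicate 2 or replicate 3 at 8% sucrose. The main cluster of subunit 3, Cluster-2051.77973, measured 264, 284 and 271 CPM at 3% sucrose and 154, 172 and 177 CPM at 8% sucrose. The media did not overlap, and the log2 fold change was -0.70 ± 0.07 (SE; edgeR adjusted p = 1.74e-04). Subunit 1B had the clearest fall in Cluster-2051.22123, with 50.2, 56.4 and 46.5 CPM at 3% sucrose and 15.1, 18.0 and 19.9 CPM at 8% sucrose. Its levels at 8% sucrose were all below those at 3% sucrose (log2 fold change -1.53 ± 0.13, edgeR adjusted p = 9.50e-05).

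With counts summed by protein hit, subunits 1B to 5 all fell. Subunit 1B measured 55.6 ± 4.95 CPM at 3% sucrose and 19.4 ± 2.01 CPM at 8% sucrose (SD, n = 3). Subunit 4 measured 26.7 ± 0.724 and 13.3 ± 0.521 CPM, and subunit 5 measured 8.45 ± 0.939 and 3.65 ± 0.429 CPM. Subunit 2 had the smallest fall among these, from 26.6 ± 0.843 to 18.9 ± 0.534 CPM. Subunit 6 measured 6.15 ± 0.89 and 6.39 ± 0.173 CPM, with a log2 fold change of 0.05 ± 0.13 (edgeR adjusted p = 0.72). Under the other scaling of these sums, described with the counts by protein hit, subunit 6 rose with a log2 fold change of 0.41. The cluster that rose, Cluster-2051.67747, shares its hit with falling clusters of subunit 2. It measured 1.74, 1.57 and 1.18 CPM at 3% sucrose and 4.30, 3.85 and 3.28 CPM at 8% sucrose (log2 fold change 1.35 ± 0.25, edgeR adjusted p = 0.00377). It holds a small part of the subunit's counts, and the subunit's sum fell.

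The MCM helicase is a ring of the subunits MCM2 to MCM7, and each of the 6 had a hit that fell. Of 13 tested MCM clusters 7 fell, none rose and 6 were uncalled. Cluster-2051.100772, named MCM6, measured 96.5, 108 and 94.8 CPM at 3% sucrose and 23.1, 26.6 and 26.7 CPM at 8% sucrose. Cluster-2051.57584, named MCM2, measured 64.3, 71.7 and 65.3 CPM at 3% sucrose and 16.8, 18.0 and 19.6 CPM at 8% sucrose. Neither overlapped between media. MCM6 was 3.92-fold lower at 8% sucrose (log2 fold change -1.97 ± 0.09, edgeR adjusted p = 6.44e-06), and MCM2 was 3.69-fold lower (log2 fold change -1.89 ± 0.08, edgeR adjusted p = 6.23e-06).

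The other MCM subunits fell by less. On counts summed by hit, MCM3 measured 87.8 ± 5.68 CPM at 3% sucrose and 32.2 ± 3.05 CPM at 8% sucrose (SD, n = 3). MCM4 measured 65.0 ± 3.27 and 33.1 ± 1.68 CPM, and MCM7 measured 47.8 ± 1.11 and 25.7 ± 1.71 CPM. MCM5 moved least, from 75.7 ± 6.98 to 51.5 ± 1.78 CPM, and its log2 fold change was -0.56 ± 0.07 (edgeR adjusted p = 8.34e-05). The order of the subunits per length therefore differed between media. FPKM is given as deposited, which corrects for length but raises short clusters by more than their length alone, as mean and SD of 3 libraries. In FPKM the MCM6 cluster stood at 37.3 ± 2.45 at 3% sucrose, above MCM3 at 30.9 ± 1.73, MCM5 at 29.3 ± 2.53 and MCM2 at 22.8 ± 1.25. MCM3 and MCM5 did not differ there beyond their spread. At 8% sucrose MCM5 stood at 21.4 ± 0.630 FPKM, above MCM3, at 12.6 ± 1.18 FPKM, MCM6, at 10.6 ± 0.900 FPKM, and MCM2, at 6.88 ± 0.613 FPKM.

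**Figure D3:**
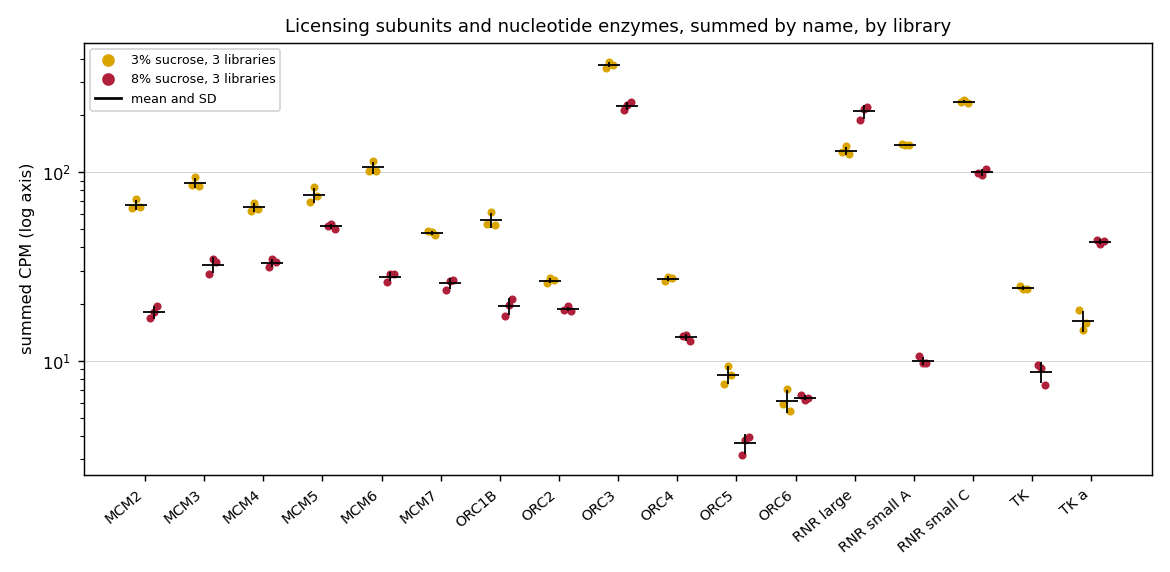
Summed CPM of each MCM and ORC subunit, of the ribonucleotide reductase subunits and of the thymidine kinase names on a log axis, with 1 point per library and the mean and SD of 3 libraries per medium. MCM2 to MCM7 and ORC1B to ORC5 are lower at 8% sucrose, ORC6 overlaps, the reductase's small chain A falls from 139 to 10.01 CPM and its large subunit rises from 130 to 210 CPM.

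All 3 replicative polymerases were lower at 8% sucrose in summed level, while their subunits differed, and subunit B of polymerase epsilon rose. Polymerase alpha had 9 tested clusters, of which 2 fell (22.2%), none rose and 7 were uncalled. Over all tested clusters 25.6% fell and 29.1% rose, so falls were no more frequent in this role than in general. Polymerase alpha had 4 falls without replicate 1 at 8% sucrose. Its catalytic subunit, Cluster-2051.69896, measured 67.2, 83.8 and 71.5 CPM at 3% sucrose and 27.8, 31.6 and 34.3 CPM at 8% sucrose (log2 fold change -1.25 ± 0.11, edgeR adjusted p = 1.57e-04). Its subunit B, Cluster-2051.20996, measured 33.7, 36.5 and 32.0 CPM and then 7.51, 10.1 and 9.78 CPM (log2 fold change -1.90 ± 0.13, edgeR adjusted p = 4.21e-05). In both clusters the media were apart.

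Polymerase delta had 20 tested clusters, of which 9 fell (45%), 1 rose (5%) and 10 were uncalled. Its small subunit, which holds the catalytic subunit to the rest of the enzyme, showed the largest fall of the complex on counts summed by hit. It measured 71.5, 73.6 and 68.6 CPM at 3% sucrose and 17.7, 18.5 and 17.5 CPM at 8% sucrose, with a log2 fold change of -1.99 ± 0.05 (edgeR adjusted p = 4.20e-09). The catalytic subunit moved little, from 63.2 ± 3.95 to 55.7 ± 2.19 CPM (SD, n = 3; log2 fold change -0.18 ± 0.06, edgeR adjusted p = 0.0211). That direction depended on the scaling, since the other scaling of the sums gave 0.17 (edgeR adjusted p = 0.03). Subunit 3, in Cluster-2051.47418, measured 63.2, 67.2 and 61.7 CPM and then 44.1, 49.9 and 50.1 CPM (log2 fold change -0.41 ± 0.07, edgeR adjusted p = 0.00319). Summed by hit under the other scaling, subunit 3 was at -0.05 and uncalled (edgeR adjusted p = 0.458). The cluster that rose, Cluster-2051.47420, is a second one named for subunit 3, at 0.330 ± 0.0358 and 1.36 ± 0.108 CPM (SD, n = 3).

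Polymerase epsilon had 18 tested clusters, of which 6 fell (33.3%), 2 rose (11.1%) and 10 were uncalled. Its catalytic subunit A, in Cluster-2051.90187, measured 119, 146 and 128 CPM at 3% sucrose and 65.1, 72.9 and 75.6 CPM at 8% sucrose (log2 fold change -0.88 ± 0.10, edgeR adjusted p = 3.63e-04). Subunit 3, a small histone-fold protein in human cells, fell in Cluster-2051.101184 from 59.6 ± 3.63 to 35.2 ± 0.987 CPM (SD, n = 3; edgeR adjusted p = 1.28e-04). Subunit C, at 6.45 ± 1.38 and 4.79 ± 0.535 CPM summed by hit (SD, n = 3), did not pass (edgeR adjusted p = 0.0544). Subunit B went the other way. Its Cluster-2051.69422 measured 9.12, 11.5 and 8.36 CPM at 3% sucrose and 29.9, 34.0 and 28.8 CPM at 8% sucrose, with no overlap (log2 fold change 1.68 ± 0.14, edgeR adjusted p = 1.07e-04). All 3 clusters of subunit B summed to 25.2 ± 0.947 and 51.1 ± 1.49 CPM (SD, n = 3), a rise of 1.02 ± 0.06 on the log2 scale (edgeR adjusted p = 2.11e-07). The count of rises in this polymerase was 1 without replicate 1 or 3 at 3% sucrose or replicate 1 or 3 at 8% sucrose.

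The clamp did not follow the helicase. PCNA had 5 tested clusters, of which 1 rose, 1 fell and 3 were uncalled. Its main cluster, Cluster-2051.101135, measured 25.1, 26.3 and 22.6 CPM at 3% sucrose and 25.6, 30.2 and 30.2 CPM at 8% sucrose. The media overlapped and the log2 fold change of 0.22 ± 0.10 did not pass (edgeR adjusted p = 0.106). It passed without replicate 1 at 8% sucrose, at 0.30, with scaling by library total, at 0.38, and with a minimum count of 50, at 0.33. Cluster-17603.1, with 7.31 ± 0.603 and 3.61 ± 0.277 CPM, fell, and Cluster-2051.101132, with 1.18 ± 0.303 and 2.83 ± 0.403 CPM, rose (SD, n = 3). Summed over all 5 clusters PCNA was at 40.2 ± 2.52 and 41.3 ± 3.19 CPM. The ratio of 8% to 3% sucrose was 1.03 here, 1.15 with scaling by library total, 0.965 with TMMwsp scaling and 0.987 with DESeq2's size factors, so no direction can be given.

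Named clusters of replication factor C moved in both directions, while calls in the role were less frequent than over all clusters. Of its 24 tested clusters 6 rose (25.0%), 4 fell (16.7%) and 14 were uncalled, beside 29.1% and 25.6% over all tested clusters. The median log2 fold change was 0.57. Among the 9 with a mean of at least 100 counts 3 rose and 4 fell, and the median was -0.27. The count of falls was 2 without replicate 1 at 8% sucrose. Subunit 1, the large subunit, fell in Cluster-2051.113630 from 126, 143 and 128 CPM at 3% sucrose to 58.1, 68.6 and 66.8 CPM at 8% sucrose (log2 fold change -1.04 ± 0.09, edgeR adjusted p = 1.03e-04). Clusters named subunit 2 moved apart. Cluster-2051.45683 measured 53.8, 59.2 and 55.9 CPM and then 20.6, 22.4 and 20.6 CPM (log2 fold change -1.41 ± 0.07, edgeR adjusted p = 1.003e-05). Cluster-2051.49631 measured 33.6, 31.9 and 32.4 CPM and then 69.6, 76.5 and 75.4 CPM (log2 fold change 1.18 ± 0.06, edgeR adjusted p = 1.27e-05). Both clusters have different hits of that name, and the small subunits of the clamp loader resemble each other, so the subunit each codes for is uncertain. The more abundant of 2 subunit 3 hits rose from 31.0 ± 1.52 to 50.3 ± 1.91 CPM (SD, n = 3; edgeR adjusted p = 4.28e-06).

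Replication protein A, which coats single-stranded DNA, had 22 tested clusters, of which 9 fell (40.9%), 5 rose (22.7%) and 8 were uncalled. The count of rises was the least stable of all roles, at 1 to 3 when any 1 of the 6 libraries was left out, against 8 to 10 falls. The 32 kDa subunit came in forms B and A that moved in opposite directions. Form B, in Cluster-2051.16788, measured 41.6, 46.1 and 44.5 CPM at 3% sucrose and 22.2, 24.0 and 21.9 CPM at 8% sucrose (log2 fold change -0.96 ± 0.07, edgeR adjusted p = 6.99e-05). Form A, in Cluster-2051.80155, measured 22.2, 24.4 and 22.5 CPM and then 29.5, 29.8 and 31.7 CPM (log2 fold change 0.40 ± 0.07, edgeR adjusted p = 0.00358). Per length, form A stood below form B at 3% sucrose, at 16.3 and 29.4 FPKM, and above it at 8% sucrose, at 24.0 and 16.8 FPKM. Of the large 70 kDa subunit, forms C and D fell on counts summed by hit, 2 hits named form B moved in opposite directions, and form A, at 8.03 ± 0.747 and 7.51 ± 0.971 CPM (SD, n = 3), did not pass (edgeR adjusted p = 0.517).

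Among the enzymes that make deoxyribonucleotides the subunits moved apart, and ribonucleotide reductase held the largest fall in a well-counted enzyme transcript. This enzyme joins a large catalytic subunit with a small chain that carries the radical. The small chain A, in Cluster-2051.46781, measured 139, 138 and 137 CPM at 3% sucrose and 9.63, 9.19 and 9.49 CPM at 8% sucrose. It was 14.6-fold lower at 8% sucrose, with a log2 fold change of -3.87 ± 0.06 (edgeR adjusted p = 2.95e-07). The large subunit, in Cluster-2051.68786, measured 127, 137 and 123.1 CPM and then 187, 215 and 219 CPM. It rose by 0.68 ± 0.08 on the log2 scale (edgeR adjusted p = 4.39e-04), and the media did not overlap in either cluster.

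The small chain C, the TSO2 form in Arabidopsis, fell from 237 ± 5.35 to 99.8 ± 4.02 CPM on counts summed over its clusters (SD, n = 3; log2 fold change -1.25 ± 0.05, edgeR adjusted p = 4.50e-08). Its 7 tested clusters varied far more than their sum. The median coefficient of variation among replicates was 36.7% per cluster at 3% sucrose and 88.1% at 8% sucrose, and that of the sum was 2.26% and 4.02%. Cluster-2051.87381, picked after its values were seen, measured 27.9, 11.6 and 0 CPM in the 3 libraries at 8% sucrose. Per length, the small chain A cluster stood above the large subunit at 3% sucrose, with 90.7 and 42.3 FPKM, and below it at 8% sucrose, with 6.91 and 75.5 FPKM. Over the role 5 of 13 tested clusters fell (38.5%) and 1 rose (7.69%), beside 25.6% and 29.1% over all tested clusters. The rises numbered 2 when replicate 3 at 3% sucrose was left out and 3 when replicate 3 at 8% sucrose was.

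Thymidine kinase, which phosphorylates thymidine for reuse, came under 2 plant hits with opposite changes. The cluster named thymidine kinase, Cluster-2051.30428, measured 24.9, 24.0 and 24.0 CPM at 3% sucrose and 9.47, 9.10 and 7.29 CPM at 8% sucrose (log2 fold change -1.49 ± 0.12, edgeR adjusted p = 8.14e-05). Cluster-2051.36610, named thymidine kinase a, measured 14.6, 11.3 and 12.4 CPM and then 39.0, 37.3 and 38.8 CPM (log2 fold change 1.59 ± 0.11, edgeR adjusted p = 3.85e-05). Per length the first stood higher at 3% sucrose, at 20.2 and 14.4 FPKM, and the second at 8% sucrose, at 7.97 and 48.1 FPKM. The sum of the role was 51.7 ± 1.69 CPM at 3% sucrose and 62.8 ± 1.21 CPM at 8% sucrose (SD, n = 3).

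Chromatin assembly factor 1, the chaperone that brings new H3 and H4 to copied DNA, had the lowest median of the roles, a log2 fold change of -1.88. Of its 10 tested clusters 7 fell, none rose and 3 were uncalled. The 3 with a mean of at least 100 counts had a median of -1.58, beside -1.57 for the 2 such clusters of polymerase alpha. The FAS2 subunit measured 66.7, 71.0 and 72.0 CPM at 3% sucrose and 21.6, 20.6 and 20.02 CPM at 8% sucrose on counts summed by hit. Its main cluster, Cluster-2051.22447, fell by 1.58 ± 0.10 on the log2 scale (edgeR adjusted p = 3.03e-05). The FAS1 subunit measured 25.6, 25.2 and 24.5 CPM and then 11.9, 12.6 and 13.2 CPM, a log2 fold change of -1.0002 ± 0.07 (edgeR adjusted p = 1.18e-06). Both subunits were apart between media in every library.

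Histone H1, the linker histone that binds where DNA enters and leaves a nucleosome, rose. Of 13 tested H1 clusters 8 rose, 1 fell and 4 were uncalled, and the H1 sum was 929 ± 51.8 CPM at 3% sucrose and 1640 ± 68.6 CPM at 8% sucrose (SD, n = 3). Cluster-2051.75797 measured 63.7, 56.3 and 61.1 CPM at 3% sucrose and 402, 413 and 401 CPM at 8% sucrose. It was 6.72-fold higher at 8% sucrose (log2 fold change 2.75 ± 0.06, edgeR adjusted p = 6.97e-07). The H1 cluster with the highest mean CPM over the 6 libraries, Cluster-2051.83026, is 4413 bases long. It rose by less, from 268, 260 and 269 to 328, 317 and 316 CPM (log2 fold change 0.27 ± 0.04, edgeR adjusted p = 0.00191). In FPKM it stood below Cluster-2051.75797 in both media, at 60.5 against 91.9 at 3% sucrose and 81.1 against 686 at 8% sucrose. The H1.2 cluster, Cluster-2051.59915, fell from 97.6 ± 2.24 to 69.4 ± 5.61 CPM (SD, n = 3; log2 fold change -0.49 ± 0.07, edgeR adjusted p = 0.00137), a fall that did not pass under the other scaling of sums by hit.

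Histone H2A showed no common direction in its sum, 784 ± 59.8 CPM at 3% sucrose and 745 ± 29.4 CPM at 8% sucrose (SD, n = 3). The ratio of 8% to 3% sucrose was 0.950 here and 1.06 with scaling by library total. Of 24 tested H2A clusters 10 rose, 4 fell and 10 were uncalled. The one with the highest mean CPM over the 6 libraries was Cluster-2051.60403, named for H2AX, the form marked at DNA breaks. It measured 156, 135 and 133 CPM and then 179, 167 and 167 CPM (log2 fold change 0.27 ± 0.08, edgeR adjusted p = 0.0201). That call was lost with TMMwsp scaling, at 0.18, and without replicate 2 or 3 at 3% sucrose or replicate 1 at 8% sucrose.

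H2A variant 3, the name of an H2A.Z protein in Arabidopsis that marks gene starts, had 8 tested clusters, of which 5 rose, 1 fell and 2 were uncalled. The cluster that fell held 75.9% of the variant's CPM at 3% sucrose and 37.3% at 8% sucrose, and without it the ratio of 8% to 3% sucrose was 1.95 in place of 0.748. This Cluster-2051.70999 measured 96.1, 96.4 and 89.9 CPM at 3% sucrose and 37.3, 34.4 and 32.1 CPM at 8% sucrose (log2 fold change -1.44 ± 0.07, edgeR adjusted p = 1.11e-05). Cluster-2051.43991, of the same protein hit, measured 4.94, 4.96 and 4.94 CPM and then 14.2, 15.4 and 19.2 CPM (log2 fold change 1.71 ± 0.14, edgeR adjusted p = 1.00e-04). The falling cluster is 1017 bases long and the rising one 4022 bases, and what the longer one holds beside the histone was not tested. Their hit, summed, fell from 105 ± 3.31 to 60.5 ± 1.54 CPM, and the other variant 3 hit rose from 19.1 ± 1.34 to 32.3 ± 2.18 CPM (SD, n = 3; edgeR adjusted p = 1.65e-05).

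Histone H2B, the partner of H2A, was the histone kind with more falls than rises. Of 10 tested H2B clusters 6 fell, 2 rose and 2 were uncalled, and its sum was 553 ± 35.9 CPM at 3% sucrose and 327 ± 11.8 CPM at 8% sucrose (SD, n = 3). The H2B.1 cluster, Cluster-2051.76803, measured 328, 301 and 304 CPM and then 134, 136 and 129 CPM (log2 fold change -1.23 ± 0.05, edgeR adjusted p = 5.38e-06). The H2B.2 cluster, Cluster-2051.2683, held 1135, 1459 and 1297 counts at 3% sucrose and 6, 6 and 1 counts at 8% sucrose. In CPM these are 33.4, 38.1 and 35.6 against 0.155, 0.164 and 0.0259, and the fitted log2 fold change was -8.25 ± 0.32 (edgeR adjusted p = 3.62e-06). Each library at 8% sucrose lay far below the lowest at 3% sucrose. A cluster named H2B.3 (Fragment), Cluster-2051.82692, rose from 58.2, 55.3 and 54.8 to 79.2, 74.8 and 74.3 CPM (log2 fold change 0.44 ± 0.06, edgeR adjusted p = 7.86e-04). Another hit named H2B.3, with 4 clusters, fell when summed from 3.00 ± 0.586 to 1.07 ± 0.485 CPM (SD, n = 3; edgeR adjusted p = 0.0038).

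**Figure D4:**
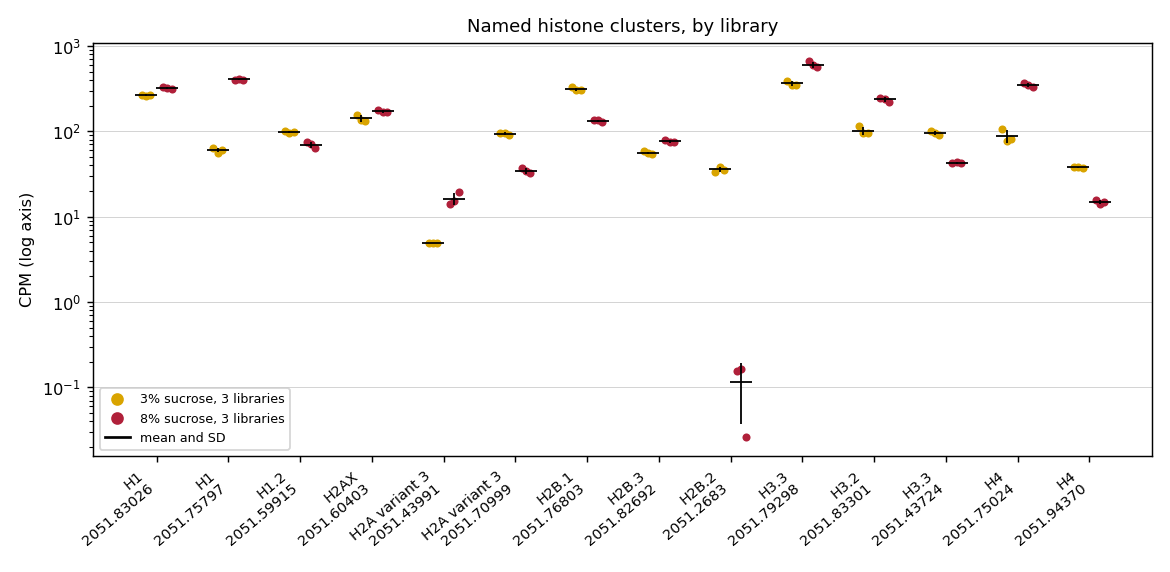
CPM of the named clusters of each histone kind on a log axis, with 1 point per library and the mean and SD of 3 libraries per medium, and the cluster number under each name. The H2B.2 cluster drops from 35.7 to 0.115 CPM, while an H1 cluster goes from 60.3 to 405 CPM and an H4 cluster from 88.1 to 345 CPM.

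Histones H3 and H4, which form the core of the nucleosome, were higher in sum at 8% sucrose, and clusters within each moved both ways. Of 24 tested H3 clusters 5 rose, 4 fell and 15 were uncalled, and 8 rose without replicate 1 at 3% sucrose. These are 20.8% rises and 16.7% falls, both below the 29.1% and 25.6% over all tested clusters. H3.3, the form placed on DNA outside replication, had 14 tested clusters, of which 3 rose, 3 fell and 8 were uncalled, or 21.4% each way. Its main cluster, Cluster-2051.79298, measured 392, 352 and 352 CPM at 3% sucrose and 657, 597 and 561 CPM at 8% sucrose (log2 fold change 0.73 ± 0.07, edgeR adjusted p = 2.74e-04). Without this cluster the H3 sum had a ratio of 8% to 3% sucrose of 1.12 in place of 1.33. The H3.3 sum then had a ratio of 0.665 in place of 1.20, so its direction rested on that cluster. Cluster-2051.43724, with the same H3.3 hit, measured 99.8, 94.3 and 91.3 CPM and then 42.1, 43.8 and 42.4 CPM (log2 fold change -1.15 ± 0.06, edgeR adjusted p = 1.01e-05). H3.2, the name of a core H3 form, had 5 tested clusters, of which 2 rose and 3 were uncalled. Its Cluster-2051.83301 measured 114, 95.6 and 94.9 CPM and then 248, 239 and 220 CPM (log2 fold change 1.22 ± 0.09, edgeR adjusted p = 5.95e-05). The centromeric H3 named HTR12, which marks the site of the kinetochore, fell on counts summed by hit from 10.2 ± 0.707 to 4.31 ± 0.336 CPM (SD, n = 3; edgeR adjusted p = 8.85e-06).

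Of 9 tested H4 clusters 4 rose (44.4%), 3 fell (33.3%) and 2 were uncalled, beside 29.1% rises and 25.6% falls over all tested clusters. Cluster-2051.75024 measured 106, 77.1 and 81.5 CPM at 3% sucrose and 365, 344 and 328 CPM at 8% sucrose, a 3.92-fold rise (log2 fold change 1.97 ± 0.13, edgeR adjusted p = 2.94e-05). Cluster-2051.94370 measured 38.2, 38.0 and 37.1 CPM and then 15.7, 14.2 and 14.9 CPM (log2 fold change -1.34 ± 0.07, edgeR adjusted p = 1.25e-05). Both share 1 protein hit, whose sum went from 309 ± 33.5 to 571 ± 25.5 CPM (SD, n = 3). Without its top cluster the H4 sum had a ratio of 1.02 in place of 1.81, so that cluster carried the difference. It is 2153 bases long, far above a histone's coding length. The falling Cluster-2051.94370 is 2217 bases long and is 1 of 5 H4 members that carry the KEGG name POLK, that of a DNA polymerase. What such clusters hold beside the histone was not tested. This fall, and likewise the rise of Cluster-2051.75024 that carried the H4 difference, may thus not be of a histone message. Of all histone members 20 were longer than 2000 bases, and with those left out 19 rose and 16 fell.

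Histones named as replacement variants (H2A variants, H2AX, H3.3 and centromeric H3) were counted apart from other core histones. Of 26 tested replacement clusters 9 rose, 5 fell and 12 were uncalled, with a sum of 963 ± 51.6 CPM at 3% sucrose and 1092 ± 54.4 CPM at 8% sucrose (SD, n = 3). The H3.3 cluster Cluster-2051.79298 held 37.9% of this sum at 3% sucrose and 55.4% at 8% sucrose. Without it the ratio of 8% to 3% sucrose was 0.815 in place of 1.13, so the direction of the sum rested on that cluster. Of 41 other core histone clusters 12 rose, 12 fell and 17 were uncalled, with sums of 1605 ± 140 and 1777 ± 89.0 CPM. The media overlapped in the sum of these other core histones, at 1508 to 1766 CPM and 1689 to 1867 CPM. Rises were 34.6% and 29.3% of these groups and falls 19.2% and 29.3%, beside 29.1% and 25.6% over all tested clusters. The difference between these groups was not tested.

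When counts were summed by protein hit before the test, the split depended on how the sums were scaled. With scaling factors from the summed table, 40.0% of all 13186 tested hits rose and 39.7% fell. Of the 55 enzyme hits 15 rose, 30 fell and 10 were uncalled, and of the 42 histone hits 24 rose, 10 fell and 8 were uncalled. With the library sizes of the cluster test, which match the CPM given here and were chosen after the first fit had been seen, 29.7% of all 13194 tested hits rose and 50.2% fell. Of the 55 enzyme hits 11 then rose, 34 fell and 10 were uncalled, and of the 41 histone hits 16 rose, 15 fell and 10 were uncalled. Hit-level p-values above are from this second scaling. Both scalings called 30 enzyme hits as fallen and 11 as risen, and 10 histone hits as fallen and 16 as risen. PCNA's main hit did not pass with the second scaling (edgeR adjusted p = 0.81) and rose with the first by 0.33 (edgeR adjusted p = 0.00152). Clusters of the same hit were called in both directions for 2 of 38 enzyme hits and for 5 of 18 histone hits with at least 2 tested clusters. The same count was not made over all hits, so whether these shares are unusual was not tested.

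Other genes of DNA replication and S phase, listed by name and outside the classes above, fell about as often as clusters in general. Of their 258 clusters 173 were tested, of which 46 fell, 28 rose and 99 were uncalled, with a median log2 fold change of -0.09. These are 26.6% falls and 16.2% rises, beside 25.6% and 29.1% over all tested clusters. Flap endonuclease 1, which trims the ends of lagging strand fragments, fell in 10 of 17 tested clusters and rose in 1. Nucleosome assembly protein 1, a chaperone of H2A and H2B, fell in 7 of 14 and rose in 3. DNA primase, the partner of polymerase alpha, fell in 5 of 15 and rose in none. The FACT complex, which moves nucleosomes aside, rose in 5 of 12 and fell in 4. DNA ligase 1, which joins the fragments, rose in 8 of 32 and fell in 4, with 3 or 4 rises when replicate 2 at 3% sucrose or any library at 8% sucrose was left out. Cyclins A, B and D with B-type cyclin-dependent kinases, which drive the cell cycle, had 47 tested clusters, of which 22 (46.8%) fell, 8 (17.0%) rose and 17 were uncalled, beside the same 25.6% and 29.1%. The rises numbered 5 without any 1 of the libraries at 8% sucrose. Cyclin D, which acts at the entry into the cycle, fell in 10 of 14 tested clusters and rose in 1, and cyclin B, which acts in mitosis, fell in 9 of 20 and rose in 4. Cyclin A fell in 2 of 10 and rose in 2, with a median log2 fold change of 1.05, and of 3 B-type kinase clusters 1 fell and 1 rose.

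In deposited FPKM, histones far outweighed the replication enzymes in both media, though FPKM raised short clusters by more than length alone. At 3% sucrose the H2B.1 cluster below, of 402 bases, had 311 CPM and 2359 FPKM. The MCM6 cluster, of 2798 bases, had 99.9 CPM and 37.3 FPKM. Histone members had a median of 965.5 bases and enzyme members 2558 bases. How much of the gap between classes comes from this was not tested. Histone clusters summed to 9697 ± 694 FPKM at 3% sucrose and 10947 ± 316 FPKM at 8% sucrose (SD, n = 3). Enzyme and factor clusters summed to 1434 ± 25.1 and 1034 ± 46.2 FPKM. The highest histone cluster in FPKM at 3% sucrose was the H2B.1 cluster, Cluster-2051.76803, with 2359 FPKM. The highest enzyme cluster was the small chain A of ribonucleotide reductase with 90.7 FPKM. The deposited FPKM of replication factor C summed to 188 ± 1.00 at 3% sucrose and 199 ± 11.3 at 8% sucrose. Its CPM summed to 309 ± 8.15 and 263 ± 13.6 (SD, n = 3). Its direction in sum thus differs between the deposited FPKM and the TMM-scaled CPM, and scaling alone also moved the ratio. The ratio of 8% to 3% sucrose was 0.852 with TMM and 0.950 with scaling by library total. H2A summed to 1928 ± 157 and 2231 ± 48.5 FPKM. Its ratio in counts was 0.950 with TMM and 1.06 with library totals, so scaling alone also turned its direction. The other roles named here with a direction in CPM kept it in FPKM.

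The authors' deposited table also gives calls for these clusters. Of 47 histone clusters called here, 39 moved alike in the authors' deposited table, 8 were not called there and 0 had the opposite direction. Of 85 enzyme and factor clusters called here, the authors' deposited table gives 77 the same direction, leaves 8 uncalled and gives 0 the opposite direction.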

How the data were processed

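RNA of 6 libraries was measured, 3 on each medium, grouped by the growth medium in the labels. Per the labels' protocols, poly(A) RNA was captured and libraries were made with a NEBNext Ultra kit, which does not mark strand, so antisense reads cannot be told apart, and read in pairs on a NovaSeq. RSEM and Bowtie2, with Trimmomatic 0.36 and FastQC, are the tools named per the submitters' processing notes. For the assembler, the protein databases and the authors' test, no version or name is given in the sources used here, and no genome was used, so clusters have no position and no sequence is shown. Per the file headers, the authors deposited expected counts per cluster and library (45.4% are not whole) and FPKM. They also deposited, per the file headers, a log2 ratio of 8% over 3% sucrose with its q-value, used only to count the authors' calls, and cluster length and hit E-values as other values.

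Expected counts were rounded to whole numbers, filtered with filterByExpr (minimum count 10), which kept 85038 clusters with 99.29% of counts and removed 85932, scaled with TMM and tested with edgeR 4.0.16 (R 4.3.3, quasi-likelihood, Benjamini-Hochberg over all tested clusters, threshold 0.05). The common biological coefficient of variation was 41.4%. SE is the log2 fold change over the square root of F. On these library sizes 3 counts correspond to 0.0776 to 0.0883 CPM, which covers counting error only. Replicates differed by more than sampling noise (chi-square per cluster 8.57 to 15.5). The test was checked on simulated data: fold changes came back without bias, but at the common spread most of the changed clusters were not called, and nearly all were at a low spread tried afterwards, so an uncalled cluster is not shown to be unchanged. Alternatives were TMMwsp, library totals, DESeq2 1.42.0, 2 other count filters, sums by Swiss-Prot hit, at least 2-fold, an E-value of at most 1e-20, land plant hits, a replicate block and each library left out. Figures were drawn with matplotlib 3.10.9.

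Members, lists, tests and alternatives were chosen with earlier results of these data known. The patterns for cyclins and topoisomerase 2 were narrowed after the files were read, to drop other proteins. Named clusters are, per role, the one with the highest mean CPM and the risen and the fallen one with the smallest adjusted p, together with the hit with the most counts. Other hits are given for whole families or were picked after their values were seen.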

Additional observations from a re-analysis of the deposited data

How the results depend on the processing

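Of 67 falls and 18 rises among enzymes and factors and 29 rises and 18 falls among histones, TMMwsp, library totals, DESeq2, both other count filters, the E-value limit and the land plant hits left each within 1.5 times. Leaving out 1 library gave 62 to 65 falls and 14 to 17 rises for enzymes and 23 to 32 rises and 16 to 18 falls for histones. The replicate numbers did not pair the libraries, since same-numbered libraries correlated at 0.0312, 0.00436 and 0.0134 in their deviations from the group means, and the replicate block gave 60 falls and 14 rises for enzymes and 29 rises and 17 falls for histones. Requiring at least 2-fold left 12 rises and 10 falls for histones and 11 rises for enzymes. Histone clusters of at most 2000 bases, chosen after seeing the data, gave 19 rises. Clusters with a mean of at least 100 counts, also chosen afterwards, gave 9716 rises and 13310 falls over all clusters. Sums by Swiss-Prot hit with their own scaling gave 10 falls for histones, 30 falls for enzymes, and 5270 rises and 5236 falls over all hits. With the library sizes of the cluster test they gave 16 rises for histones, 11 rises and 34 falls for enzymes, and 3925 rises and 6626 falls over all hits. These counts cover fewer features than clusters do. The E-value and land plant limits were applied to members alone, not to all clusters, and with the 2-fold limit they give named clusters no new value. Library totals moved the median log2 fold change of all clusters from 0.19 to 0.35. Over 40 named clusters and 559 comparisons, 538 kept direction and call, 7 lost and 4 gained a call, and 10 reversed, each of these where the sum by hit differs from its cluster. With own scaling and with cluster library sizes these were -0.15 and -0.50 for Cluster-2051.67747, -0.44 and -0.80 for Cluster-2051.43991, 0.84 and 0.49 for Cluster-2051.43724, and 1.24 and 0.89 for Cluster-2051.94370. Cluster-17603.1 reversed with own scaling, at 0.33, and Cluster-2051.101135 with cluster library sizes, at -0.019.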
